A study of Mus musculus with 8 samples.

Results

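The lungs of mice that had received only the vehicle Pluronic F-68 (PF68, a non-ionic surfactant used as the solvent control) were compared 7 days and 1 day after instillation. Members were chosen by the labels: 4 of the 8 arrays of the series, 2 labelled PF68 on day 1 and 2 labelled PF68 on day 7. The 4 remaining arrays came from lungs given single-walled carbon nanotubes (SWCNT, 0.5 mg per mouse in 50 µl of 0.1% PF68), 2 on each day, and are used here only to share the estimate of spread and to set the vehicle course beside the nanotube course. All animals were male ICR mice, an outbred stock, 5 to 6 weeks old per the labels. Every mouse, vehicle groups included, was anesthetized with intraperitoneal pentobarbital (80 mg per kg), had its trachea exposed by a 1 cm cut in the neck skin and was instilled through it. RNA came from lobe 1 of the right lung and was read on Affymetrix mouse expression arrays as 1 signal per probe set. The labels call the arrays biological replicates but name no animals, and every p-value below reflects the spread among these arrays alone, which may be technical. No untreated lung was analysed here, so a day 7 minus day 1 difference cannot be assigned to the vehicle, the anesthesia, the surgery or the animals' age: these cannot be told apart.

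Liquid placed in the airway and a wound in the neck are both followed in animals by an early acute response, in which cytokines such as interleukin-6 raise acute phase proteins and metallothioneins, and by a later repair phase. Type I and type II interferons act through their receptors and the STAT factors to switch on a shared set of antiviral genes, guanosine triphosphatases (GTPases), chemokines and antigen presentation genes, many of which carry an interferon-stimulated response element in their promoters. Whole lung holds epithelial, endothelial, mesenchymal and immune cells together, so in these samples fewer cells of a type and less RNA per cell cannot be told apart.

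Of 13853 genes tested with limma across all 8 arrays, 2455 (17.7%) differed between day 7 and day 1 in the PF68 lungs at an adjusted p under 0.05 (Benjamini-Hochberg). The calls were split evenly, with 1228 genes (8.86%) higher and 1227 (8.86%) lower on day 7, and the median difference over all genes was 0.037 on the log2 scale. Of the calls with a difference of at least 1, 325 were higher and 383 lower, and of those with at least 2, 13 were higher and 35 lower. The even split rests on the deposited scaling, under which every array has the same distribution of values. The 18 hybridization spike probe sets read 0.60 higher on day 7 than on day 1, and scaled to them the median gene was -0.56 and the calls were 172 higher against 5756 lower. The calls also rest on both day 1 arrays: without PF68 day 1 replicate 1 limma called 30 genes and without replicate 2 it called 0, with 3536 and 3476 genes at an unadjusted p under 0.05, and each of the 2455 genes kept its sign. A fit to the 4 PF68 arrays alone also called 0 genes, with 4063 at an unadjusted p under 0.05.

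**Figure D1:**
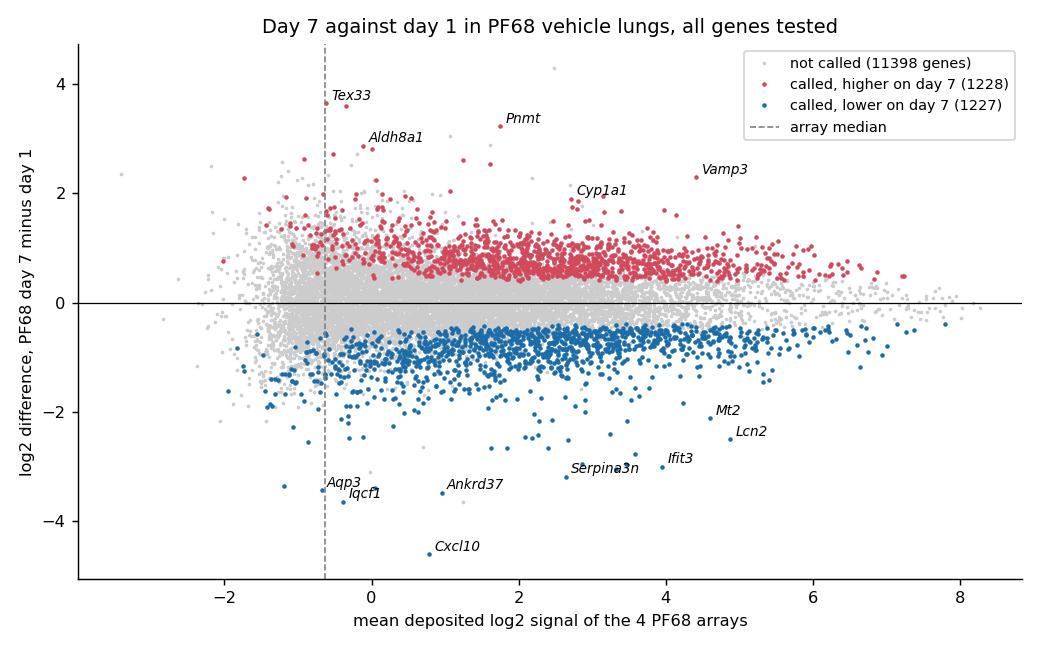
Each point is 1 of 13853 genes; the horizontal axis is the mean deposited log2 signal of the 4 PF68 arrays and the vertical axis is the log2 difference of day 7 from day 1. Red and blue points passed the adjusted p threshold of limma (1228 higher, 1227 lower), and the named falls reach further from 0 than the named rises, with Cxcl10 at -4.61.

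RNA length signals differed between the days and have to be read beside every gene below. The array carries separate probe sets for the 3′ and 5′ ends of control transcripts. For beta-actin the 3′ minus 5′ difference was 2.04 and 2.01 on the day 1 arrays and 3.29 and 3.25 on the day 7 arrays, a rise of 1.25 on the log2 scale. For Gapdh it was 1.05 and 1.03 on day 1 and 2.52 and 2.29 on day 7, a rise of 1.37. Measured from the middle probe set in place of the 5′ one, the rises were smaller, 0.88 for beta-actin and 0.54 for Gapdh. The days did not overlap for either transcript, and the shift was present in the SWCNT lungs too, at 1.63 and 1.49. With 2 against 2 arrays the smallest exact two-sided permutation p is 0.333, so these shifts have no test that could pass. The probe set for the B1 repeat, a short interspersed element carried in many transcripts, read 5.74 and 5.55 on day 1 and 7.18 and 7.00 on day 7 (1.45 higher), against 0.46 in the SWCNT course. The part of these control signals in the gene differences was not tested.

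**Figure D2:**
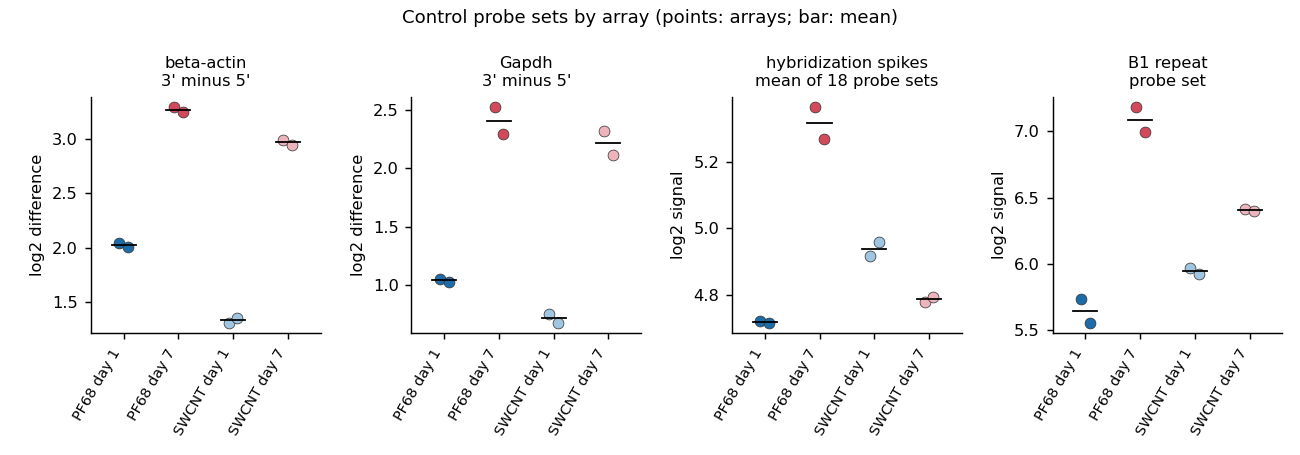
Points are single arrays and bars group means; the first pair of panels shows the log2 difference between 3′ and 5′ probe sets of beta-actin and Gapdh, the other pair the log2 signal of the hybridization spikes and of the B1 repeat probe set (axes do not start at 0). In the PF68 lungs all 4 measures were higher on both day 7 arrays than on both day 1 arrays.

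Further probe sets of a gene pointed the same way more often for falls than for rises. Among the 1227 lower genes, 607 had at least 1 further probe set that passed the filter, and in 254 of these (41.8%) at least 1 pointed the other way. Among the 1228 higher genes it was 424 of 703 (60.3%). When all passing probe sets were tested, another probe set was called in the same direction for 194 (32.0%) of those 607 lower genes but for 85 (12.1%) of those 703 higher genes, and in the opposite direction for 18 (2.97%) and 79 (11.2%). Probe sets designed to match several transcripts of a gene, or related transcripts, represented 43.5% of the higher genes, 24.8% of the lower genes and 24.5% of all genes tested. Leaving such probe sets out gave 607 higher and 948 lower calls, and averaging a gene's probe sets gave 556 higher and 901 lower.

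The interferon-induced genes had the lowest medians of the 55 lists examined. Of 29 antiviral genes tested, 22 were lower on day 7 and 0 higher, against 8.86% of all genes lower. The list median was -1.60 beside 0.037 for all genes. Spike scaling lowers every gene's difference by the same 0.60, so it could only deepen a fall (list median -2.19, all genes -0.56). All 9 of the interferon-induced GTPases tested were lower, with a median of -2.17, and among 4 interferon-induced chemokines 2 were lower. The 2 PF68 day 1 arrays stood apart from all 6 others: the mean of the 29 antiviral genes was 2.96 and 2.99 on them, 1.34 and 1.40 on PF68 day 7, 1.18 and 1.25 on SWCNT day 1 and 1.17 and 1.18 on SWCNT day 7. The mean of the 9 GTPases was also highest on PF68 day 1, at 3.96 and 4.01, and no other array was above 2.12. All the PF68 results on these genes rest on that pair of arrays; without PF68 day 1 replicate 1 limma called 6 of the 29 and 4 of the 9, without replicate 2 it called 0 of each, and 24 and 9 were then lower at an unadjusted p under 0.05.

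Promoters are shown for 4 of these genes because they carry an element that many members of these lists share. Bases are those upstream of the RefSeq gene start in build GRCm38.p6, written 5′ to 3′ on the gene's strand, and capitals mark each match to the element, written here as 2 GAAA half-sites with 2 free bases between them and searched on both strands, so that a pair of TTTC half-sites is the same element on the other strand; overlapping matches were counted. Ifit1 lies on the plus strand at chr19:34640639-34640888, with matches starting 104 and 85 bases before the start. Ifit3 lies on the plus strand at chr19:34583279-34583528, with matches 156 and 122 bases before the start. Igtp lies on the plus strand at chr11:58199306-58199555, with a match 34 bases before the start. Cxcl10 lies on the minus strand at chr5:92348890-92349139, with a match 213 bases before the start.
Ifit1: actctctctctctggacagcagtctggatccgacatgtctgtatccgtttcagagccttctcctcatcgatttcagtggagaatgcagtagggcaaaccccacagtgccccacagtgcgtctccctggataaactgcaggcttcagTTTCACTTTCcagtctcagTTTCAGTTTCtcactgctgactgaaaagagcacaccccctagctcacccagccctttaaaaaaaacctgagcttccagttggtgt
Ifit3: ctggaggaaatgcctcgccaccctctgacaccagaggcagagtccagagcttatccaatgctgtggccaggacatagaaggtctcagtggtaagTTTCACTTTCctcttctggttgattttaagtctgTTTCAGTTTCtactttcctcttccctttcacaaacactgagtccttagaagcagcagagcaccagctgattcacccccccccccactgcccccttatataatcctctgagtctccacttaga
Igtp: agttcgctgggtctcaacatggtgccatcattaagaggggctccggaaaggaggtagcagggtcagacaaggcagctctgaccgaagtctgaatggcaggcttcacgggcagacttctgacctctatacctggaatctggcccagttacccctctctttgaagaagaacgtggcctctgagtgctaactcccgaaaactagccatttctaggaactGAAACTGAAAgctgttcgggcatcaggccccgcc
Cxcl10: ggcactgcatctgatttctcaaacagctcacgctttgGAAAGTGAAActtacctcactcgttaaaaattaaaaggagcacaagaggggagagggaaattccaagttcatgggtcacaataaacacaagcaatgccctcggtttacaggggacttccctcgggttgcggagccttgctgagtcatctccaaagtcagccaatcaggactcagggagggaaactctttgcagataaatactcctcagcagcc

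The element was sought over windows of 250 bases before to 50 after the start. Of 20 tested antiviral genes with a RefSeq window 11 held it (55.0%), as did 9 of the 16 called lower (56.2%). Among GTPases the element was present in 6 of 7 (85.7%). It was present in 3.44% of all 32851 windows and in 396 of 11133 tested genes with a window (3.56%). The motif was chosen after the gene results were known, the match is a description of letters and not of binding, and windows of related genes are not independent. The lists were made of interferon-induced genes, so these shares describe the lists and do not bear on the day 7 falls.

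Cxcl10, the chemokine that draws T cells through CXCR3, fell most of all named genes. It read 3.13 and 3.05 on the day 1 arrays and -1.28 and -1.75 on the day 7 arrays, where both values lay below the array median of -0.628. The days did not overlap, as for 61.1% of all genes in either direction, and this was a condition for naming the 12 largest falls. The Cxcl10 difference was -4.61 ± 0.30 (SE, n = 2 and 2, limma adjusted p = 0.00383). Ccl5, a chemokine for T cells and monocytes, fell by 1.38 (adjusted p = 0.0101 by limma), while Cxcl9 and Cxcl11 were not called, at 0.43 and -0.56.

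The IFIT proteins bind foreign RNA and limit its translation. Ifit1 read 4.84 and 5.01 on day 1 and 1.87 and 2.08 on day 7, a difference of -2.95 ± 0.17 (limma adjusted p = 0.00310). Ifit3 read 5.52 and 5.39 on day 1 and 2.36 and 2.54 on day 7, a difference of -3.01 ± 0.14 (limma adjusted p = 0.00306). Days that do not overlap were a condition for naming these among the largest falls. Both days of both genes lay above the array median, so these falls do not rest on dim probe sets. Ifit2 fell by 2.95 and Eif2ak2, the double-stranded RNA-activated kinase PKR, by 2.48. Irf7 and Stat2, transcription factors of the interferon pathway, fell by 2.17 and 1.77, and Usp18, which restrains interferon signalling, by 2.15. The sensors Ifih1 and Dhx58 fell by 1.25 and 1.51. The members not called included Mx1 at -3.11, Mx2 at -1.21, Oas2 at -0.58, Bst2 at -0.50, Irf9 at -0.31, and Oas3 and Ifi35, both at 0.17.

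The interferon-induced GTPases attack the membranes that enclose intracellular microbes. Igtp read 4.96 and 4.97 on day 1 and 2.08 and 2.30 on day 7, a difference of -2.77 ± 0.12 (limma adjusted p = 0.00306). Irgm2 read 3.78 and 3.68 on day 1 and 1.18 and 0.94 on day 7, a difference of -2.67 ± 0.21. The days of both genes did not overlap, which was a condition for naming the largest falls. Irgm1, Iigp1 and Gbp2 fell by 2.48, 2.41 and 2.17, and the smallest fall of the list was that of Ifi47 at -1.31. Trim30d, of the TRIM family, fell by 3.36, with both day 7 values (-3.27 and -2.48) below the array median.

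Class I presentation genes were lower in most members tested, and class II genes in few, beside 8.86% of all genes lower. Of 12 class I genes tested 9 were lower and 0 higher, with a median of -0.58 (-1.17 scaled to the spikes). Nlrc5, the transactivator of class I genes, read 1.55 and 1.72 on day 1 and -0.12 and -0.09 on day 7, a difference of -1.74 ± 0.13. Its days were separate. Tap1, a peptide transporter subunit, fell by 1.31, B2m, the class I light chain, by 0.80, and Psmb8, an immunoproteasome subunit, by 0.78, although another Psmb8 probe set stood at 0.14. Of 10 class II genes 3 were lower and 0 higher (list median -0.14), and 7 did not pass. Among the 3, Cd74, the invariant chain, fell by 0.51, Ctss, the protease that trims it, by 0.73, and the class II transactivator Ciita by 0.90. No class I call was made without either day 1 array in turn, when 10 and 9 of the 12 genes were lower at an unadjusted p under 0.05.

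**Figure D3:**
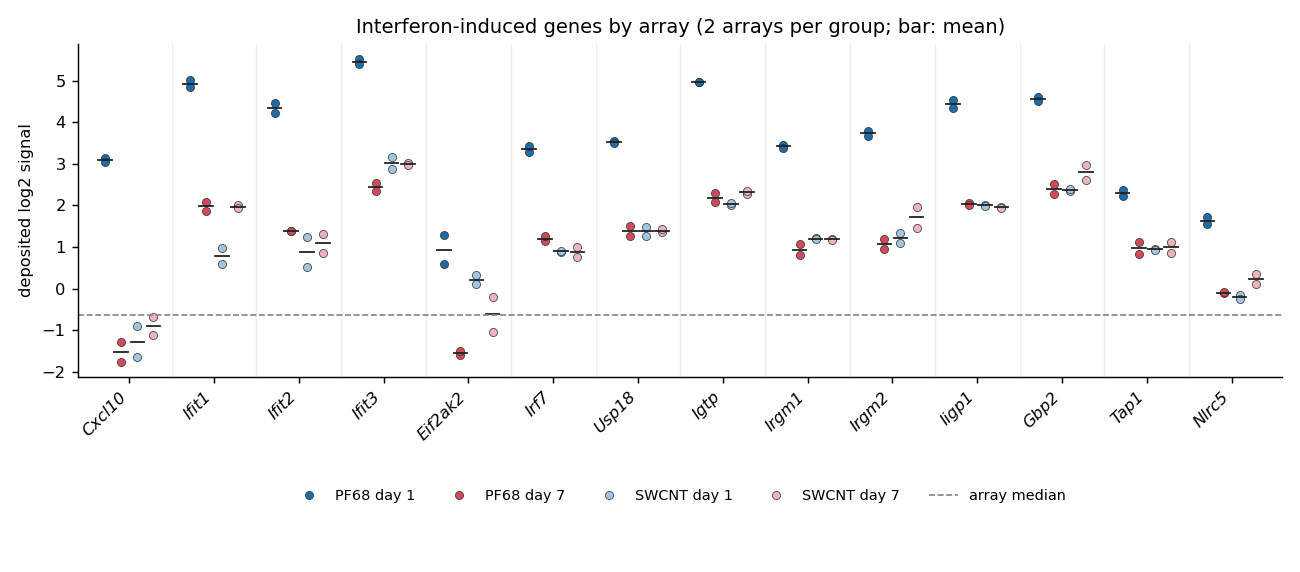
Points are the deposited log2 signals of single arrays for 14 interferon-induced genes, bars are group means of 2 arrays and the dashed line is the array median. Both PF68 day 1 arrays lie above the other 6 arrays for every gene shown.

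The vehicle course was then set against the nanotube course. The test of the difference between the courses called 325 genes (2.35%) by limma, 129 with the PF68 course higher and 196 lower, and 196 of them were among the 2455 PF68 calls. This count was far lower under several alternatives: 50 with no filter on dim probe sets, and 3 to 74 when 1 array was left out, with 3 without SWCNT day 1 replicate 1, 13 and 15 without PF68 day 1 replicate 1 and 2, 19 and 23 without SWCNT day 7 replicate 1 and 2, 20 without SWCNT day 1 replicate 2, and 74 and 41 without PF68 day 7 replicate 1 and 2. For the interferon lists, 18 of the 29 antiviral genes and 8 of the 9 GTPases had a lower PF68 course and 0 a higher one; the list medians in the SWCNT course were 0.01 and 0.43. Ifit1 rose by 1.18 in the SWCNT course, so its courses differed by -4.13 (limma adjusted p = 0.00513). Cxcl10 differed by -4.98 between the courses and Igtp by -3.05. Of all PF68 calls 943 were also called in the same direction in the SWCNT lungs, 38.4% of the PF68 calls and 41.8% of the 2257 SWCNT calls, and 79 in the opposite direction. Both courses contained the 3′ minus 5′ shift.

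Acute phase genes were lower in part in both courses. Of 14 tested 7 were lower and 0 higher on day 7 after PF68, with a median of -0.70 (-1.30 scaled to the spikes), and 6 were lower and 1 higher after SWCNT, with a median of -0.93. Serpina3n, a secreted protease inhibitor, read 4.28 and 4.19 on day 1 and 0.79 and 1.30 on day 7, a difference of -3.19 ± 0.19 (limma adjusted p = 0.00324). Lcn2, which binds bacterial siderophores and is made by neutrophils and epithelium, read 6.15 and 6.09 on day 1 and 3.65 and 3.59 on day 7, a difference of -2.50 ± 0.14. The days overlapped for neither gene, which was a condition for naming Serpina3n among the largest falls. The Serpina3n fall was -2.99 in the SWCNT course, and the courses of Lcn2 differed by -1.33. Il6, the cytokine that drives the acute phase in liver, read 0.23 and 0.26 on day 1 and lay below the array median on day 7, at -1.60 and -1.81. Cd14, Saa3 and Orm1 fell by 1.15, 1.18 and 1.60, while Hp, haptoglobin, was not called at 0.28. Of 15 neutrophil markers 2 were lower, Lcn2 itself and Ngp (-1.21), and 1 was higher, Clec4d (0.68). Over all genes 8.86% were lower and 8.86% higher after PF68, so the neutrophil counts were near the share of all genes.

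Metal handling genes moved in both directions. Among 10 tested 2 were higher and 4 lower, against 8.86% of all genes each way. Mt2, a metallothionein that binds zinc and copper, read 5.77 and 5.55 on day 1 and 3.46 and 3.63 on day 7, a difference of -2.11 ± 0.13 (limma adjusted p = 0.00383). Mt1 fell by 1.23, with its second probe set at -1.28, and Hmox1, the heme oxygenase, by 1.10. Both day 7 arrays lay below both day 1 arrays for these 3 genes. The transferrin receptor Tfrc and the iron exporter Slc40a1 were higher, by 0.73 and 0.60. Of 16 Nrf2 antioxidant genes 6 were lower and 0 higher, with a median of -0.61 in the PF68 course and -0.62 in the SWCNT course. Gsta3, a glutathione transferase, fell by 1.08 and Txnrd1, a thioredoxin reductase, by 0.91, but further probe sets of both stood above 0 (0.64 for Gsta3, 0.80 and 1.52 for Txnrd1).

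Some stress hormone, clock and immediate early genes were lower on day 7, when 8.86% of all genes were lower and 8.86% higher. Of 15 glucocorticoid-induced genes 10 were lower and 1 higher, with a median of -0.58 (-0.45 after SWCNT). Ddit4, an inhibitor of mTOR signalling, read 4.0 and 3.85 on day 1 and 2.63 and 2.45 on day 7, a difference of -1.38 ± 0.12. Zbtb16 went the other way, from 2.28 and 2.82 to 3.92 and 4.53, a difference of 1.67 ± 0.27 (limma adjusted p = 0.0161). Its 2 further probe sets stood at 0.06 and 1.20. The days overlapped for neither Ddit4 nor Zbtb16. Of 18 clock genes 7 were lower and 0 higher; Per1, Per2 and Per3, repressors of the clock, fell by 0.84, 0.94 and 1.35, and Nfil3 by 1.74, whereas Arntl, their activator, stood at -0.07. The 4 further Per3 probe sets ranged from -0.89 to 0.94, and hours of sampling were not given in the sources used here. Of 27 immediate early genes 10 were lower and 2 higher, with Nr4a1 at -1.39, Atf3 at -1.28 and Klf4 at -1.06 among the falls and Jund at 0.98 among the rises.

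Many matrix genes were lower on day 7, beside 8.86% of all genes lower and 8.86% higher. Of 35 collagen and matrix genes tested 16 were lower and 1 higher, with medians of -0.48 after PF68 and -0.46 after SWCNT. Lox, the enzyme that cross-links collagen and elastin, read 4.79 and 4.90 on day 1 and 1.76 and 1.84 on day 7, a difference of -3.04 ± 0.10 (limma adjusted p = 0.00225). The further Lox probe sets stood at -4.49 and -3.24. The Lox fall was larger after PF68 than after SWCNT by 1.24 (limma adjusted p = 0.0270). Col1a1 read 2.88 and 2.97 on day 1 and 1.60 and 1.56 on day 7, a difference of -1.34 ± 0.12, but its second probe set stood at 0.22. Mfap4, a microfibril protein, fell by 1.84 and its courses differed by -1.97. Thbs1, thrombospondin-1, fell by 1.61 with a second probe set at -1.43. The gene that rose was Fbln2, at 0.77. Of 16 fibroblast markers 6 were lower and 0 higher, and 10 were not called; the lower ones include Dcn at -1.33, which is on the matrix list too and whose second probe set stood at 0.77, and Pdgfra at -0.75. The mean of these markers was 3.33 on both day 1 arrays and 2.94 and 2.96 on day 7.

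Mitosis genes were lower in part on day 7 after the vehicle, where 8.86% of all genes were lower and 8.86% higher. Of 16 tested 7 were lower and 0 higher, with a median of -0.83 after PF68 (-1.43 scaled to the spikes) and 0.39 after SWCNT, where 3 were higher and 0 lower, against 9.59% and 6.7% of all genes. Mki67, a marker of cycling cells, read 1.49 and 1.51 on day 1 and 0.59 and -0.19 on day 7, a difference of -1.30 ± 0.28 (limma adjusted p = 0.0293). In the SWCNT course it rose by 1.33, and the courses differed by -2.63 (limma adjusted p = 0.0409). Ube2c, a ubiquitin-conjugating enzyme of mitotic exit, read 0.91 and 1.21 on day 1 and -1.0 and -0.41 on day 7. Prc1 and Bub1b, of the spindle and its checkpoint, fell by 1.34 and 1.31 to signals below the array median. The difference of the courses was called lower for 2 of the 16 genes, and DNA replication genes did not follow: of 18, 3 were higher and 1 lower, with Pcna at -0.86 and E2f1 at 1.13. Without either PF68 day 1 array in turn no mitosis gene was called.

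Hypoxia and glycolysis genes included 1 of the largest falls. Their counts stand beside 8.86% of all genes lower and 8.86% higher. Ankrd37, a target of hypoxia-inducible factor, read 2.59 and 2.79 on day 1 and -1.01 and -0.57 on day 7, a difference of -3.48 ± 0.17 (limma adjusted p = 0.00306). The courses differed by -1.65. Of the 19 genes 4 were lower and 0 higher, the others being Bnip3 at -1.17, the lactate dehydrogenase subunit Ldha at -0.96 and the glycolytic mutase Pgam1 at -0.89. Further falls outside the lists were Aqp3, a channel for water and glycerol, from 0.61 and 1.47 to -1.80 and -2.99 (-3.43 ± 0.54), and Iqcf1 at -3.64. Both ended below the array median on both day 7 arrays.

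Some cytokine genes not driven by interferon were lower on day 7, to be read beside 8.86% of all genes lower and 8.86% higher. Of 11 CXC chemokines 4 were lower and 0 higher, among them Cxcl13, which draws B cells, at -1.61 and Cxcl12 at -0.83, whose further probe sets ranged from -0.63 to 0.76. Of 13 CC chemokines 4 were lower and 0 higher: Ccl7, Ccl8, Ccl3 and Ccl12, ligands for monocytes, fell by 1.91, 1.58, 1.43 and 1.41. Ccl7, Ccl3 and Ccl12 were below the array median of -0.628 on both day 7 arrays. Ccl7 (-0.62 and -0.31) and Ccl3 (-0.45 and -0.27) lay near it on day 1 too, so the size of these falls is uncertain. Of 19 NF-kappaB cytokine, feedback and adhesion genes 2 were lower, Il6 and the adhesion receptor Icam1 (-0.73). The other 17 were not called, so the lower share was near that of all genes. Among 13 genes of alternative macrophage activation 5 were lower and 1 higher. Arg1, the urea cycle enzyme, stood at -1.39 after PF68 and 1.37 after SWCNT, and Chil4 rose by 1.37. Arg1 was near or below the array median on day 1 (-0.81 and -0.53) and below it on day 7 (-2.50 and -1.62) after PF68. Chil4 was below it on both PF68 day 1 arrays. Of 13 complement genes 2 were lower and 1 higher, and of 13 coagulation genes 4 were lower, with tissue factor, F3, at -1.76.

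Rises were fewer among the largest changes, and several rested on dim probe sets or on probe sets that others of the same gene did not follow. Pnmt, which makes adrenaline from noradrenaline, read -0.05 and 0.31 on day 1 and 3.24 and 3.47 on day 7, a difference of 3.23 ± 0.47 (limma adjusted p = 0.0128), but its second probe set stood at 0.13. Aldh8a1, an aldehyde dehydrogenase, read -1.37 and -1.73 on day 1, below the array median, and 1.35 and 1.28 on day 7. Vamp3, a vesicle fusion protein, read 3.27 and 3.26 on day 1 and 5.48 and 5.64 on day 7, a difference of 2.29 ± 0.12, while its 4 further probe sets ranged from -1.02 to 0.75. Days that do not overlap were a condition for naming these 3 genes. Agbl5, a tubulin deglutamylase, rose by 2.55 with further probe sets at -1.16 and -0.55, and Utf1 by 2.04 with a further probe set at -1.98. Tex33 and Sox9 had the largest called differences, 3.65 and 3.59, with adjusted p of 0.0487 and 0.0492 by limma; both were below the median on day 1 and the day 7 arrays of Sox9 lay 2.89 apart. Serf1 (2.62), Ccdc63 (2.27) and Ccdc187 (2.25) completed the named rises with Mup3 and Mup5.

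Some genes of hepatocytes were higher in the lung on day 7, when 8.86% of all genes were higher and 8.86% lower. Of 6 tested 2 were higher and 0 lower, with a median of 0.99 (0.39 scaled to the spikes), and the mean of the 6 was -0.51 and -0.29 on day 1 and 0.70 on both day 7 arrays. In the SWCNT lungs it was -0.44 and -0.15 on day 1 and -0.23 and 0.36 on day 7. Alb, serum albumin, read -0.09 and -0.27 on day 1 and 1.33 and 0.92 on day 7, and Fabp1, the liver fatty acid binding protein that is also on the alveolar macrophage list, 1.77 and 1.93 on day 1 and 3.78 and 3.40 on day 7. Both were higher on each day 7 array. The major urinary proteins Mup3 and Mup5, secreted by liver, rose by 2.73 and 2.63 from signals below the array median; copies of this family are nearly identical, so which of them gave the signal is uncertain. Among adipocyte markers 2 of 9 were higher and 0 lower. Car3, the carbonic anhydrase of fat and muscle, rose from 2.16 and 2.17 to 4.07 and 4.16 (1.95 ± 0.11), with a second probe set at 0.42. Adipoq rose by 1.08. The list median of 0.53 became -0.07 when scaled to the spikes. The part of liver or fat RNA in other results was not tested.

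Airway epithelial genes rose in part, beside 8.86% of all genes higher and 8.86% lower. Of 13 ciliated cell genes 4 were higher and 0 lower, with a median of 0.43 that became -0.16 when scaled to the spikes. A further 4 of the 13, not called, had differences below 0, the lowest being Tekt1 at -0.52. Foxj1, the transcription factor of motile cilia, read 1.21 and 1.53 on day 1 and 2.45 and 2.20 on day 7, a difference of 0.95 ± 0.18. In the SWCNT course Foxj1 stood at -0.17 and was not called. Tppp3 and Dynlrb2, of the axoneme and its motors, rose by 0.93 and 0.89, and by 0.94 and 0.89 in the SWCNT course. Of 13 club and mucous cell genes 5 were higher and 3 lower, at a median of 0.29 that became -0.30 when scaled to the spikes. Bpifa1, a secreted airway surface protein, read 4.20 and 4.34 on day 1 and 5.46 and 5.36 on day 7, a difference of 1.15 ± 0.13, against a fall by 2.14 after SWCNT. The days did not overlap for Foxj1 or Bpifa1. Chad and Bpifb1 rose by 1.34 and 1.04, with a second Bpifb1 probe set at -0.09, and Agr2, a chaperone of mucus cells, fell by 1.53.

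Chaperones, metabolic enzymes and ribosomal genes had list medians between -0.08 and 0.29. All but the ribosomal list nevertheless held larger shares of calls than the 17.7% of all genes. These were the heat shock, endoplasmic reticulum, xenobiotic, mitochondrial respiration, and cholesterol and fatty acid synthesis lists. The ribosomal list held a smaller share. Of 19 heat shock chaperones 6 were higher and 0 lower, but the median of 0.19 became -0.40 when scaled to the spikes. Hspa1b read 3.40 and 3.22 on day 1 and 4.34 and 4.24 on day 7, a difference of 0.98 ± 0.12, with further probe sets at 0.17 and 0.28; it shares most of its sequence with Hspa1a (0.67). Hspb8, Cryab and Hsph1 rose by 0.86, 0.81 and 0.80, but every further probe set of theirs stood below 0, between -0.79 and -0.27. Among 14 endoplasmic reticulum chaperones 3 were higher and 2 lower, with Hyou1 at 1.15 and a further Hyou1 probe set at -0.14. Among 17 xenobiotic enzymes 5 were higher and 3 lower; Cyp1a1, induced through the aryl hydrocarbon receptor, read 1.76 and 1.77 on day 1 and 3.70 and 3.64 on day 7 (1.90 ± 0.14; adjusted p = 0.00609 by limma), and Fmo2 fell by 1.41. Of 19 cholesterol and fatty acid synthesis genes 2 were higher and 2 lower, of 19 mitochondrial respiration genes 3 and 2, and of 15 ribosomal proteins 1 and 0.

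**Figure D4:**
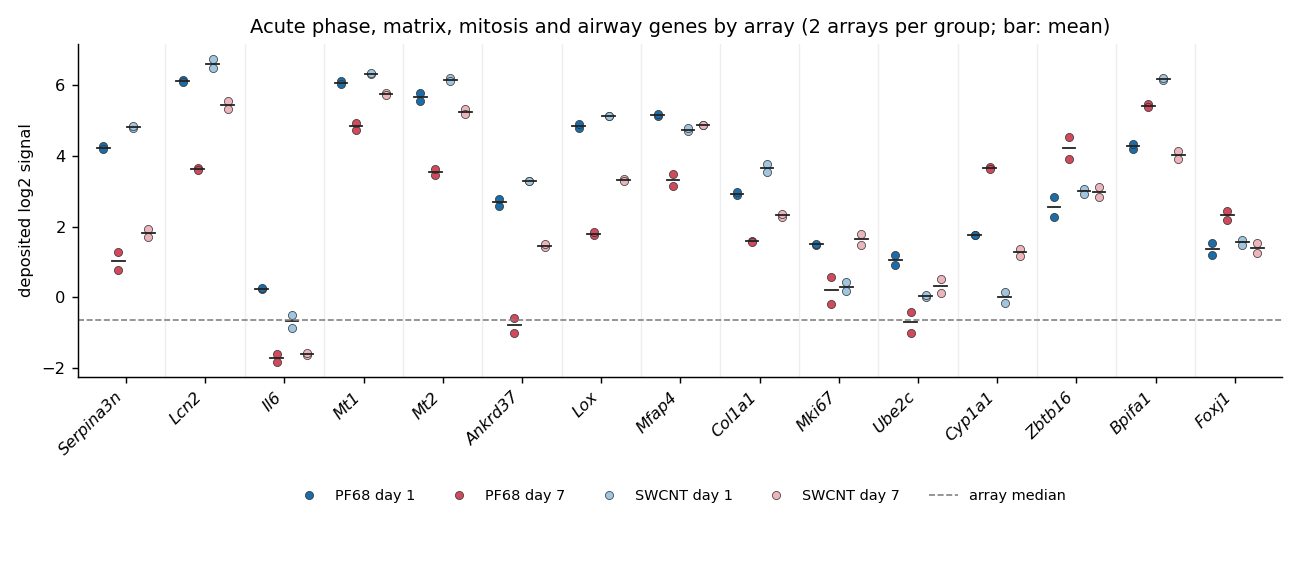
Points are the deposited log2 signals of single arrays for 15 genes of the acute phase, matrix, mitosis and airway groups, bars are group means of 2 arrays and the dashed line is the array median. Lox, Serpina3n and Col1a1 fell on both courses, Mki67 fell after PF68 and rose after SWCNT, and Bpifa1 moved in opposite directions.

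The lung identity of the samples was checked with epithelial markers. The mean of 14 alveolar type 2 markers lay between 5.35 and 5.44 on the 4 PF68 arrays, and 1 of them was higher (Abca3, the surfactant lipid transporter, 0.68, with a further probe set at -0.67) and 1 lower (Sftpb, surfactant protein B, -0.91). Of 12 alveolar type 1 markers 2 were higher and 2 lower, Pdpn and Akap5 against Clic5 and Cldn18. Of 17 endothelial markers 6 were lower and 1 higher, with Pecam1 at -1.71 and Emcn at -1.17 after PF68 and -1.07 and -2.04 after SWCNT. The marker means were 4.01 and 4.04 on day 1 and 3.68 on both day 7 arrays. Of 13 smooth muscle markers 3 were lower and 1 higher, with Myh11 at -1.62, whose second probe set stood at 0.08. Of 17 cardiac muscle markers 6 were lower and 1 higher, and of 9 mesothelial markers 2 were lower and 1 higher. All counts of these markers stand beside 8.86% of all genes lower and 8.86% higher. Both called nerve markers of 6, Pmp22 and Cnp, were higher, but 3 of the 6 had differences below 0. Both called mast cell markers of 6, Hdc and Gata2, were higher, and again 3 of the 6 lay below 0. A further probe set of Hdc stood at -0.29 and 1 of Cnp at -0.11. Among 4 chondrocyte markers 1 was higher (Sox9).

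Immune and blood cell lists differed in their share of calls. The alveolar macrophage, monocyte, erythroid, platelet, lymphatic and thymocyte lists exceeded the 17.7% of all genes called. The NK, dendritic, T cell, B cell and eosinophil lists did not. Of 15 alveolar macrophage markers 4 were lower and 2 higher; Ctsk, a lysosomal protease, read 2.23 and 2.36 on day 1 and 0.90 and 0.61 on day 7, a difference of -1.54 ± 0.15, against a rise by 2.19 after SWCNT. Of 11 monocyte markers 3 were lower and 0 higher. These 3 were Cd14, Nr4a1 and Vcan, while 4 of the 11 lay above 0, among them Ccr2 (0.91) and Csf1r (0.32). Lower calls were 2 of 12 NK cell markers, 1 of 12 dendritic cell markers (Ccr7, -0.98) and 1 of 14 T cell markers. The last was Cd8b1 (-1.66), also the lower call among 4 thymocyte markers. B cell and plasma cell markers gave 1 call of 12, Jchain, the joining chain of secreted antibodies, at 0.94. Of 6 erythroid markers 3 were lower, Alas2, Fech and Car2, and 2 of the 6 lay above 0. The further Fech probe sets ranged from -1.14 to 0.98. Of 10 platelet markers 2 were lower, of 5 lymphatic markers 1 was called each way, and of 3 eosinophil markers none was called by limma, with Prg2 at -1.25.

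Skeletal muscle and squamous epithelium markers lay low on the PF68 arrays, where 8.86% of all genes were higher on day 7 and 8.86% lower. The mean of 16 skeletal muscle markers was between -0.80 and -0.49 on them and 2.58 on both SWCNT day 1 arrays, and 1 of the 16 was lower on day 7 (Acta1, -0.86). The mean of 14 squamous markers was between -1.05 and -0.49 on the PF68 arrays and 1.09 and 1.20 on SWCNT day 1; 3 were higher on day 7, with a median of 0.64 that became 0.05 when scaled to the spikes. The highest differences between the courses came from such markers, Krtdap (7.30), Myh1 (6.40), Tnnc2 (6.33), Car3 (5.71) and Mt4 (5.02), and each of these fell by at least 3.76 in the SWCNT lungs. Krtdap, Myh1, Tnnc2 and Mt4 were below the array median on all 4 PF68 arrays, and of the 5 only Car3 and Mt4 (0.76) were called in the PF68 lungs. The lowest differences between the courses were Aqp3 (-5.31), Cxcl10 (-4.98), Mmp12 (-4.45), Ifit1 (-4.13) and Ctsk (-3.73). Mmp12, the macrophage elastase, read -0.38 and -0.66 on PF68 day 1 and -1.46 and -1.01 on PF68 day 7 and rose by 3.73 in the SWCNT lungs.

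**Figure D5:**
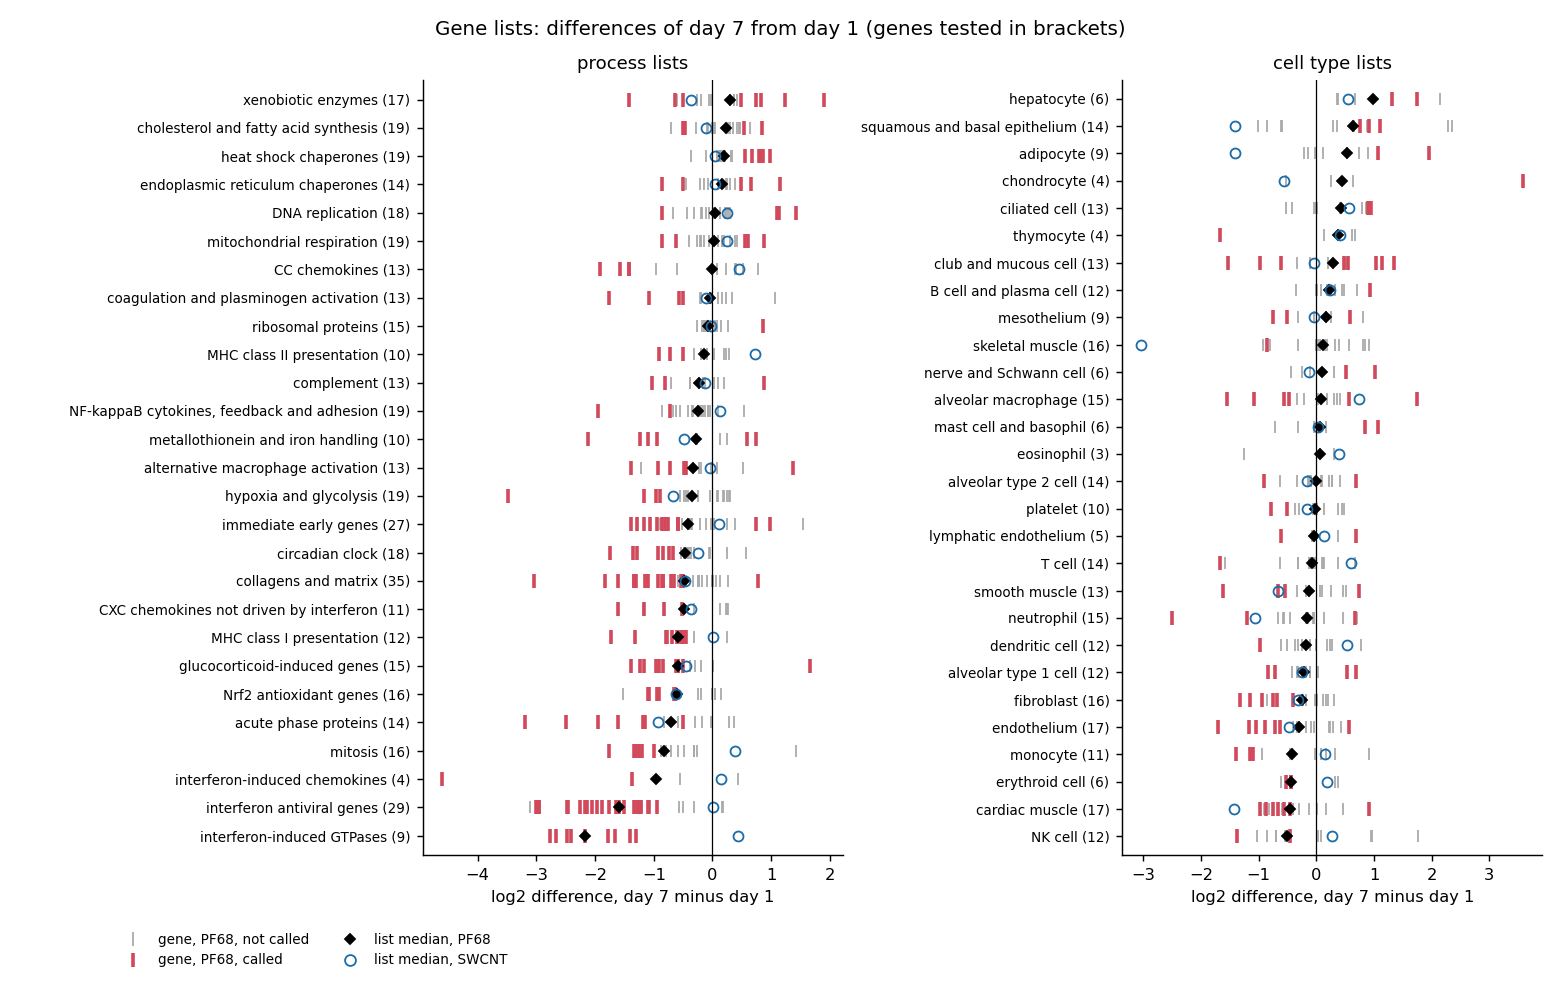
Each row is a list of genes with the number tested in brackets; ticks are the log2 differences of single genes in the PF68 lungs (red where limma called them), black diamonds the list medians after PF68 and open circles the list medians after SWCNT. The interferon lists and mitosis lie lowest after PF68, at medians of -2.17, -1.60, -0.97 and -0.83, while their medians after SWCNT lie between 0.01 and 0.43.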

How the data were processed

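The authors' deposited table gives 1 value per probe set and array. The submitters' processing notes name RMA, without version or settings. The deposited values are read here as log2 signals; neither the log base nor an offset was stated. Sorted, the columns were identical (median -0.628), so total RNA per array cannot be read from them. Control probe sets (64) and probe sets with missing values (8) were left out. Probe sets had to reach the array median on 2 or more of the 8 arrays, and each gene with 1 symbol in the platform annotation was represented by the probe set of highest mean. In limma 3.58.1 (R 4.3.3; lmFit, eBayes) the 4 group means were fitted to the 8 arrays together (4 residual and 1.81 prior degrees of freedom), with Benjamini-Hochberg adjustment over 13853 genes and a threshold of 0.05; ± is the SE. The number of arrays limits the precision. The fit was tested on simulated data.

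Named genes are the 12 largest called rises and falls with non-overlapping PF68 arrays (predicted genes, antigen receptor segments and pseudogenes left out), up to 4 called members of each of 55 gene lists (27 processes, 28 cell types) or, where none was called, the member with the largest difference, and the 5 highest and lowest differences between courses. Other list members were chosen for mention after their values were seen. The members, lists and motifs were chosen with earlier results of these data known. Promoter windows are from RefSeq (GRCm38.p6). Alternatives were other filters, probe set rules, array weights, a variance trend, a replicate block, spike scaling, a floor and leaving out each array.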

Additional observations from a re-analysis of the deposited data

Results flagged for a closer look

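The genes below were singled out because the day 7 minus day 1 difference of the PF68 lungs differed from that of the SWCNT lungs by the limma test of that difference (Benjamini-Hochberg adjusted p under 0.05, n = 2 arrays in each of 4 groups). Values are the PF68 difference minus the SWCNT difference on the log2 scale. The number of genes called by this test fell from 325 to between 3 and 74 when 1 array was left out, and was 50 with no filter. Both courses share the estimate of spread, and none of these differences was weighed against a cause.

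Among interferon-induced and antigen presentation genes the values were -4.98 for Cxcl10, -4.13 for Ifit1, -3.17 for Irgm2, -3.16 for Ifit2, -3.05 for Igtp, -2.98 for Ifit3, -2.93 for Trim30d, -2.46 for Irgm1, -2.37 for Iigp1, -2.35 for Ctss, -2.17 for Nlrc5, -1.37 for Psmb8 and -1.36 for Tap1. These 13 genes were higher on the PF68 day 1 arrays than on the PF68 day 7 arrays.

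Among macrophage, chemokine and lymphoid genes they were -4.45 for Mmp12, -3.73 for Ctsk, -2.76 for Arg1, -2.16 for Ccl8, -1.92 for Ccl3, -1.84 for Chia1, -1.55 for Ccr7 and -1.01 for Gzma. Among matrix, proliferation, stress and transport genes they were -5.31 for Aqp3, -2.63 for Mki67, -1.97 for Mfap4, -1.90 for Nr4a1, -1.65 for Ankrd37, -1.64 for Gpc3, -1.56 for Fn1, -1.33 for Lcn2, -1.24 for Lox, -1.21 for Mt2 and -1.03 for Ddit4.

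The PF68 course was the higher for muscle, fat and squamous genes: 7.30 for Krtdap, 6.40 for Myh1, 6.33 for Tnnc2, 5.71 for Car3, 5.02 for Mt4, 4.94 for Acta1, 3.97 for Adipoq and 1.29 for Sbsn. On the SWCNT day 1 arrays the mean of 16 skeletal muscle markers was 2.58, against at most -0.49 on any PF68 array. For epithelial and other genes the values were 3.28 for Bpifa1, 2.13 for Aldh3a1, 2.07 for Agbl5, 1.26 for Hyou1, 1.23 for Fen1, 1.12 for Gpx2, 1.05 for Bpifb1 and 0.91 for Pdpn. The further probe sets of Agbl5, Hyou1, Fen1 and Bpifb1 pointed the other way in the PF68 lungs.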

How the results depend on the processing

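The 2455 PF68 calls became 1407 with no filter, 1457 with the mean of probe sets, 1555 without probe sets of related transcripts, 0 with the 4 PF68 arrays alone and 5928 with spike scaling. At an adjusted p of 0.01, at 0.10, with a log2 difference of at least 1 and at an unadjusted p of 0.05 they were 331, 3801, 708 and 4738. Leaving out 1 array gave 0 to 1841, the lowest without PF68 day 1 replicate 2; the lone array left is then assumed to vary like the other groups. The 325 course differences became 50 with no filter, 501 with the median reached on 4 arrays, 157 with the mean of probe sets, 148 without probe sets of related transcripts, 1382 with a variance trend and robust fit, 6127 with spike scaling, 740 with a floor at the median, 24 at 0.01, 978 at 0.10 and 2886 unadjusted, and 3 to 74 without 1 array. Measured from the middle probe set, the control shifts were 0.88 for beta-actin and 0.54 for Gapdh. With the replicate number as a block 1878 PF68 calls and 30 course differences were made. Across genes, deviations of same-numbered samples correlated at -0.0060 to 0.012. This shows no deviation common to most genes, but cannot tell whether same-numbered samples share a batch that affects some genes.

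Signs turned for these named genes, and the cause was not tested: with the mean of probe sets Acly (0.50), Cryab (-0.15), Gpm6a (-0.056), Hmgcs1 (-0.29) and Txnrd1 (0.47); without probe sets of related transcripts Agbl5 (-0.55), Bpifb1 (-0.089), Car4 (-0.27), Cryab (-0.79), Fdft1 (-0.41), Gpm6a (-0.70), Hmgcs1 (-0.46), Hspb8 (-0.27), Hyou1 (-0.14), Tpm2 (-0.24) and Vamp3 (-0.50); with spike scaling Akap5 (-0.068), Car4 (-0.030), Gpm6a (-0.012), Hmgcs1 (-0.063), Pmp22 (-0.078) and Tnnc2 (-0.27). No other named gene changed sign under any alternative run. With 2 arrays per group and no detection flags, signals below the array median have uncertain differences.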
